A study of Mus musculus with 14 samples.

Results

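Small nucleolar RNAs and Cajal body RNAs are short guide RNAs of the nucleus. The 119 mouse genes described here are those of 24394 in the deposited count tables whose symbols begin with Snora, Snord or Scarna and a digit. They comprise 36 box H/ACA RNAs (Snora), 74 box C/D RNAs (Snord) and 9 Cajal body RNAs (Scarna). The same 119 symbols stood at 130 loci in the FPKM tables, which hold 24345 genes. Neither their levels nor any fold change was used to choose them.

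Box C/D RNAs pair with ribosomal RNA and direct 2′-O-methylation by fibrillarin (Fbl), and box H/ACA RNAs direct pseudouridylation by dyskerin (Dkc1). Cajal body RNAs carry one or both of these boxes and guide the same modifications on spliceosomal small nuclear RNAs. A few box C/D RNAs, such as U22 and U8 in Xenopus and U14 in yeast, are needed for cleavage of pre-ribosomal RNA. In vertebrates most of these RNAs are cut out of introns of host genes, many of which encode ribosomal proteins or nucleolar proteins or have no coding role of their own. Many such hosts begin transcription in a tract of pyrimidines, which ties their translation to growth signals and leaves non-coding hosts prone to nonsense-mediated decay.

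RNA was immunoprecipitated (RIP) with Flag antibody from mouse embryonic stem cells overexpressing 3Flag-Dppa5a, either treated with HU (HU_Flag_RIP) or untreated (Flag_RIP). Untreated cells carrying the same overexpressed protein, precipitated with IgG, were the control (IgG_RIP). RNA-seq was made from stem cells with Dppa5a knocked down (Dppa5a_KD) and wild type stem cells as their control (KD_control), and from untreated wild type stem cells (mESC) and primary embryonic fibroblasts (MEF). Each of the 7 groups had 2 libraries. Dppa5a is an RNA-binding protein of pluripotent cells, and the design text asks which RNAs it binds with and without HU. The sources do not spell out HU. Nor do they state if the pair of libraries in a group stems from different cultures, and the p-values here hold for the spread between those libraries, which may be technical. All stem cells had been kept on fibroblast feeders and passaged on gelatin before harvest.

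RIP libraries held 7378729 to 13033886 counts with Flag antibody and 3472020 and 3703236 with IgG. The precursor ribosomal RNA gene Rn45s took 66.9 to 73.2% of the counts in the 4 Flag libraries and 39.3 to 47.9% in the IgG libraries. Trimmed-mean (TMM) factors, which offset such a difference, were 0.782 to 0.846 in the Flag libraries and 1.45 and 1.60 in the IgG libraries. Dppa5a stood at 101 and 358 FPKM in Dppa5a_KD, against 5126 and 5417 FPKM in KD_control (limma log2 fold change −4.78, SE 0.63, adjusted p = 0.0088), and at no more than 0.0871 FPKM in MEF. The 8 stem cell markers summed to 1970 to 3610 FPKM in the stem cell libraries and to 17.7 and 23.4 FPKM in MEF. The 8 fibroblast markers summed to 7.81 and 7.98 FPKM in Dppa5a_KD, 20.2 and 20.8 FPKM in KD_control, 2.33 and 6.49 FPKM in mESC, and 5367 and 6416 FPKM in MEF.

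The small RNAs were detected in every RIP group, mostly at few counts. Of the 119 members, 95 had at least 1 count in some RIP library and 24 had none. A count of 0 allows up to 3 counts, or 0.292 to 0.597 CPM (counts scaled to a common library total) depending on the library. In Flag_RIP 80 and 73 members were above 0, in HU_Flag_RIP 70 and 69, and in IgG_RIP 59 and 59, and the IgG libraries were also the shallowest. The members held 15123 counts in all, 52.9% of them in the 9 Cajal body RNAs, 31.4% in the box H/ACA RNAs and 15.7% in the 74 box C/D RNAs. The 5 members with the most counts held 56.0%. Only 40 members passed the filter on low counts (21 box H/ACA, 14 box C/D and 5 Cajal body RNAs), so the tests below speak for those.

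Members over 100 nt had more counts than shorter ones. The deposited loci ran from 22 to 275 nt with a median of 78 nt, and the class medians were 119.5 nt for box H/ACA, 67 nt for box C/D and 118 nt for Cajal body RNAs. The 52 members of at most 75 nt had a median of 8.5 counts over the 6 libraries, the 21 of over 75 to 100 nt had 5 counts, the 34 of over 100 to 150 nt had 35 counts and the 7 over 150 nt had 894 counts. These 7 held 47.5% of all member counts. Across the 114 members at 1 locus, length and total counts had a Spearman correlation of 0.35, a description over genes that share the same libraries. Scarna2, Scarna9 and Scarna10 stood off this trend, since their deposited loci are only 61, 42 and 71 nt long but held 2111, 1052 and 777 counts. RefSeq gives these loci the same lengths, and whether they span the whole RNA was not tested.

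**Figure D1:**
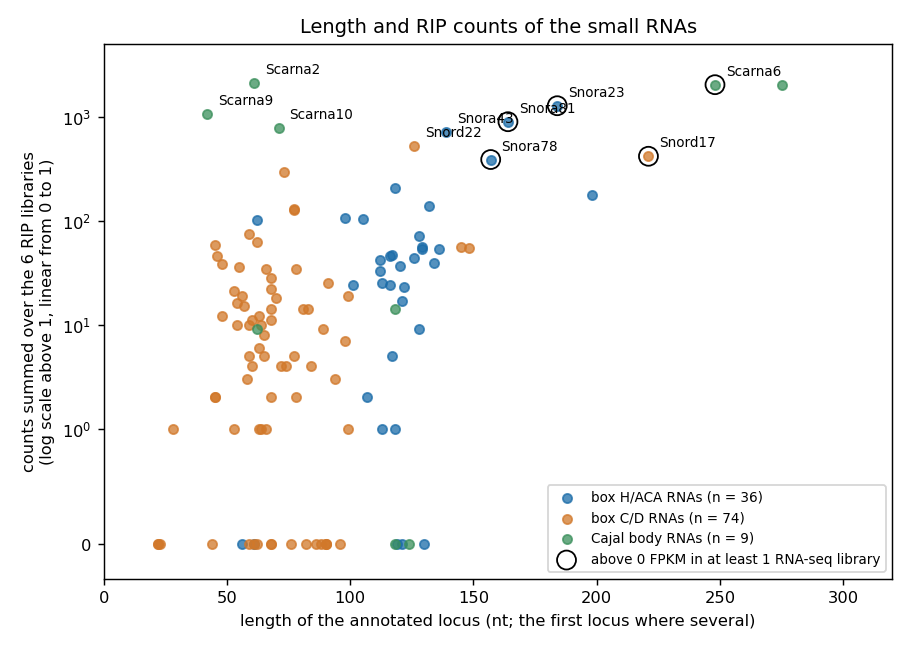
Length of the deposited locus in nucleotides (x) against the counts summed over the 6 RIP libraries (y, log scale above 1), 1 point per member, coloured by class. Scarna2, Scarna9 and Scarna10 have many counts for the length of their deposited loci, and the 5 circled members also seen in RNA-seq are 157 nt or longer.

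Summed over each class and scaled by TMM, Flag_RIP and IgG_RIP overlapped in all 3 classes. Box H/ACA RNAs summed to 127 and 91.6 CPM in Flag_RIP, 89.7 and 101 CPM in HU_Flag_RIP and 163 and 102 CPM in IgG_RIP. Box C/D RNAs summed to 67.0 and 55.9 CPM in Flag_RIP, 48.8 and 47.3 CPM in HU_Flag_RIP and 60.3 and 46.2 CPM in IgG_RIP. Cajal body RNAs summed to 241 and 121 CPM in Flag_RIP, 192 and 173 CPM in HU_Flag_RIP and 200.1 and 178 CPM in IgG_RIP. HU_Flag_RIP lay just below IgG_RIP for box H/ACA RNAs and below Flag_RIP for box C/D RNAs, while the lowest and the highest Cajal body sums were both Flag_RIP libraries. All members together averaged 352 ± 119 CPM in Flag_RIP, 326 ± 6.43 CPM in HU_Flag_RIP and 375 ± 68.2 CPM in IgG_RIP (SD, n = 2 each). As a share of all counts, without that scaling, the members took 0.0344% (exact 95% interval 0.0334 to 0.0354%) and 0.0227% (0.0217 to 0.0236%) in Flag_RIP and 0.0258% and 0.0265% in HU_Flag_RIP. The share was 0.0612% (0.0586 to 0.0639%) and 0.0521% (0.0498 to 0.0545%) in IgG_RIP. These intervals cover counting error only. Taken over the counts outside the 10 genes with the most counts, the share averaged 0.254 ± 0.0769% in Flag_RIP, 0.248 ± 0.00139% in HU_Flag_RIP and 0.276 ± 0.0538% in IgG_RIP. For all members together, both Flag groups thus averaged below IgG_RIP on all 3 scales. The gap was wide by library size and within the spread between libraries on the other 2 scales. On those 2 scales box C/D RNAs averaged higher in Flag_RIP than in IgG_RIP, at 61.4 against 53.3 CPM and 0.0446 against 0.0392%. Box H/ACA and Cajal body RNAs averaged lower in Flag_RIP there. An exact permutation test of 2 against 2 libraries cannot reach 0.05, and the sums were not tested in another way.

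**Figure D2:**
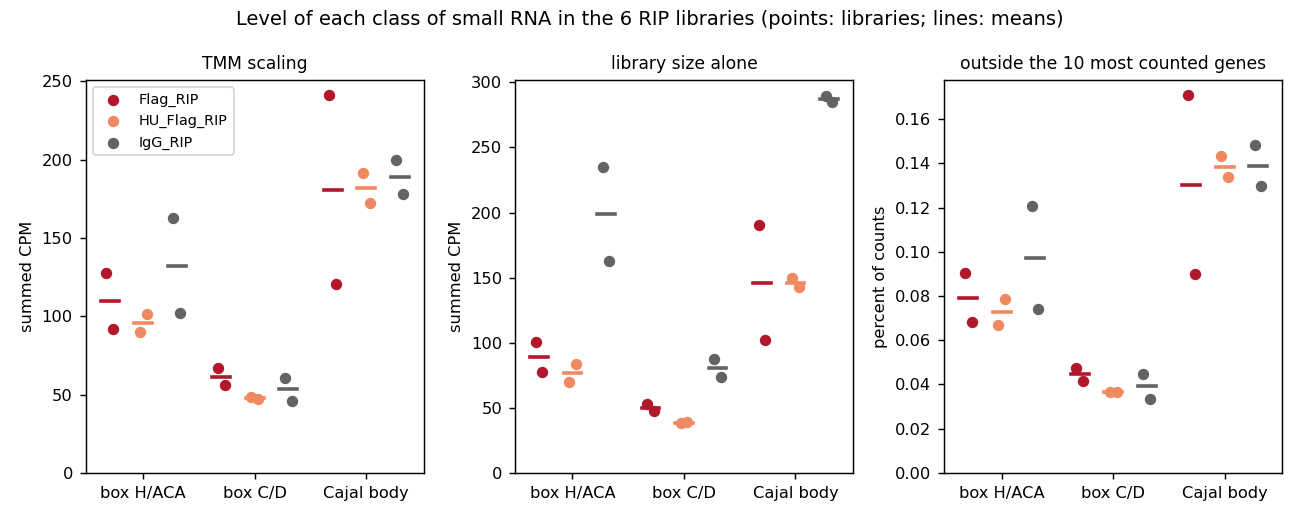
Summed level of box H/ACA, box C/D and Cajal body RNAs in each RIP library (points) and the group means (lines), as CPM with TMM scaling, as CPM by library size alone, and as percent of the counts outside the 10 most counted genes. IgG_RIP stands above both Flag groups by library size alone, and Flag_RIP and IgG_RIP overlap on the other 2 scales.

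No small nucleolar or Cajal body RNA differed between Flag_RIP and IgG_RIP by edgeR's quasi-likelihood test at an adjusted p under 0.05. In this comparison 2.32% of 10473 genes were called. The 40 tested members had a median log2 fold change of 0.02, as did all genes (0.02), with 21 members above 0 and 19 below. By class the medians were −0.15 for box H/ACA, 0.19 for box C/D and 0.02 for Cajal body RNAs. An unadjusted p under 0.05 was found for 5 members, and DESeq2 also called none. In 9 members both Flag_RIP libraries lay above both IgG_RIP libraries (23.8% of all genes did so), and in 8 both lay below (22.9% of all genes), which is 9 and 8 of 40.

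Snord22, the counterpart of U22, had 21.1 and 13.7 CPM in Flag_RIP, 7.17 and 9.36 CPM in HU_Flag_RIP and 8.76 and 7.28 CPM in IgG_RIP. It lies at chr19:8725866-8725991 (mm10) inside Snhg1. Both Flag_RIP libraries were thus above the other 4, which overlapped among themselves. The log2 fold change was 1.12 for Flag_RIP against IgG_RIP (SE 0.41, edgeR adjusted p = 0.17) and −1.08 for HU_Flag_RIP against Flag_RIP (SE 0.41, adjusted p = 0.88), so neither passed after adjustment. The counts of its host Snhg1 did not follow it, with a log2 fold change of −0.04 for Flag_RIP against IgG_RIP.

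Snord17, a box C/D RNA of 221 nt at chr2:144265982-144266202 inside Snx5, had 7.49 and 3.75 CPM in Flag_RIP, 9.57 and 9.20 CPM in HU_Flag_RIP and 23.3 and 10.8 CPM in IgG_RIP. The Flag_RIP libraries lay below all others, and the HU_Flag_RIP libraries lay between. Its log2 fold change for Flag_RIP against IgG_RIP was −1.58 (95% interval −2.56 to −0.61), and its adjusted p of 0.084 was the lowest of the 40 members in edgeR. Snord15a, inside Rps3, had only 0.486 and 0.375 CPM in Flag_RIP against 1.99 and 3.72 CPM in IgG_RIP, with a log2 fold change of −2.68 (SE 1.12, adjusted p = 0.25). Snord104, in no host, had 7.68 and 7.87 CPM in Flag_RIP, 7.57 and 6.73 CPM in HU_Flag_RIP and 5.38 and 4.91 CPM in IgG_RIP, so both Flag groups lay above IgG_RIP by a log2 fold change of 0.60 (SE 0.48) and 0.48 (SE 0.48). Snord96a, inside Gnb2l1, had 1.75 and 6.37 CPM in Flag_RIP, 2.79 and 3.61 CPM in HU_Flag_RIP and 1.59 and 1.02 CPM in IgG_RIP, again with both Flag groups above IgG_RIP and with an adjusted p of 0.35 for Flag_RIP against IgG_RIP.

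Among box H/ACA RNAs, Snora23 inside Ipo7 (chr7:110046364-110046547) had 43.0 and 18.7 CPM in Flag_RIP, 27.8 and 24.0 CPM in HU_Flag_RIP and 36.4 and 24.4 CPM in IgG_RIP. The 2 Flag_RIP libraries spanned all the others, and its log2 fold change was 0.03 (SE 0.37) for Flag_RIP against IgG_RIP. Snora17 and Snora43 lie in the same host, Snhg7, but did not vary alike. Snora17 had 3.50 and 4.37 CPM in Flag_RIP, 3.45 and 4.93 CPM in HU_Flag_RIP and 1.19 and 1.02 CPM in IgG_RIP. Its log2 fold changes against IgG_RIP were 1.82 (SE 0.73, adjusted p = 0.22) in Flag_RIP and 1.91 (SE 0.74, adjusted p = 0.17) in HU_Flag_RIP, both on 6 counts in each IgG library. Snora43 had 14.9 and 20.2 CPM in Flag_RIP, 8.77 and 21.2 CPM in HU_Flag_RIP and 22.1 and 15.6 CPM in IgG_RIP, so its groups overlapped. Snora31, inside Tpt1, had 17 and 5 counts in Flag_RIP, 13 and 6 in HU_Flag_RIP and 1 and 0 in IgG_RIP. Scaled by TMM, that is a ratio of 13.2 for Flag_RIP over IgG_RIP with a counting interval of 2.13 to 543. This interval pools the libraries of each group and leaves out the spread between them. By edgeR the log2 fold change was 3.40 with a confidence interval of −0.05 to 6.85, which includes 0 (adjusted p = 0.34). Snora78 inside Snhg9 and Snora65 inside Rpl12 overlapped between groups, with log2 fold changes for Flag_RIP against IgG_RIP of −0.63 (SE 0.47) and −0.47 (SE 0.64).

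The 5 tested Cajal body RNAs were among the members with the most counts. Human SCARNA2 and SCARNA9 guide modification of U2 and SCARNA10 of U5 small nuclear RNA. Scarna2, which lies in no other gene of the tables (chr3:108554342-108554402), had 44.3 and 51.6 CPM in Flag_RIP, 39.5 and 73.2 CPM in HU_Flag_RIP and 48.4 and 43.3 CPM in IgG_RIP. Its log2 fold change for Flag_RIP against IgG_RIP was 0.07 with a 95% interval of −0.60 to 0.73. Scarna13, inside Snhg10, had 58.0 and 31.4 CPM in Flag_RIP, 46.6 and 36.1 CPM in HU_Flag_RIP and 59.3 and 49.4 CPM in IgG_RIP, with a log2 fold change of −0.28 (SE 0.32). Scarna9, inside Cep295, had 34.6 and 15.1 CPM in Flag_RIP against 23.1 and 26.2 CPM in IgG_RIP.

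Scarna6 and Scarna10 differed widely between the 2 Flag_RIP libraries. Scarna6, inside the autophagy gene Atg16l1 (chr1:87784571-87784818), had 69.2 and 14.7 CPM in Flag_RIP, 58.2 and 30.9 CPM in HU_Flag_RIP and 56.7 and 48.9 CPM in IgG_RIP. Scarna10, inside the condensin gene Ncapd2 (chr6:125186361-125186431), had 34.8 and 6.75 CPM in Flag_RIP, 23.5 and 10.8 CPM in HU_Flag_RIP and 12.1 and 10.3 CPM in IgG_RIP. For both, replicate 1 was above replicate 2 in each group. Without Flag_RIP replicate 1 the tested members had a median log2 fold change against IgG_RIP of −0.28. Without Flag_RIP replicate 2 that median was 0.13. The log2 fold change of Scarna10 changed sign without replicate 1, and that of Scarna6 changed sign without replicate 2. The lone Flag_RIP library then gives no spread of its own. Of the 17 members with a mean of at least 20 counts, replicate 1 exceeded replicate 2 for 10 in Flag_RIP, 11 in HU_Flag_RIP and 16 in IgG_RIP.

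**Figure D3:**
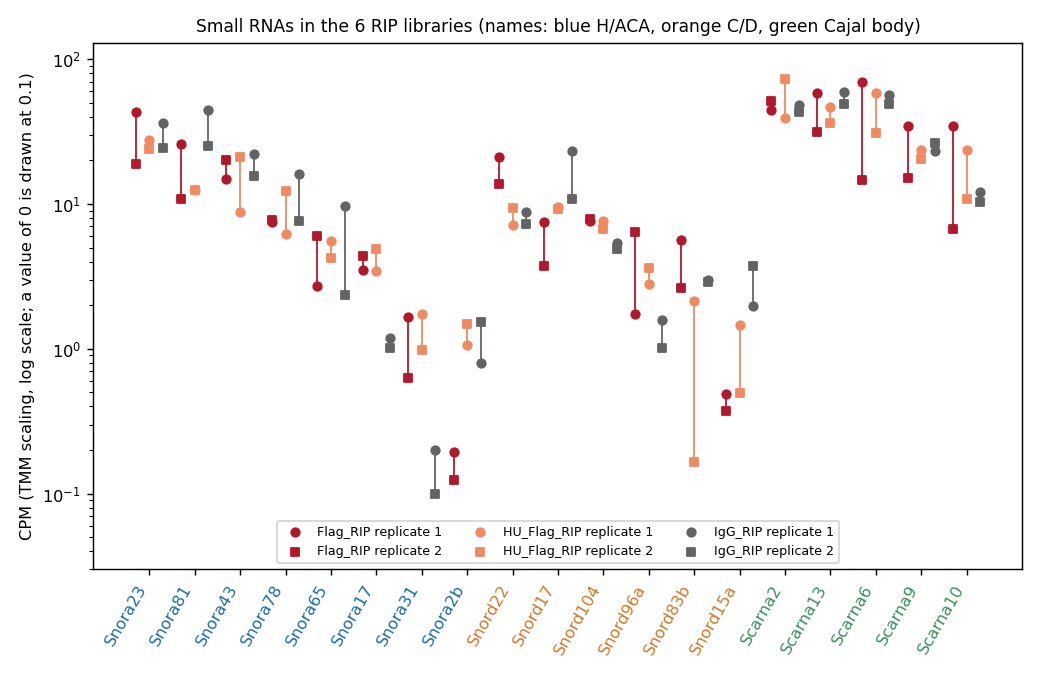
TMM-scaled CPM (log axis, with 0 drawn at 0.1) of the 19 members named by a fixed rule that had counts, 1 point per RIP library, colours by group and shapes by replicate. Snord22 is higher in both Flag_RIP libraries than in the rest, and the Flag_RIP pair of Scarna6 and Scarna10 spans most of the other values.

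HU_Flag_RIP gave a like result. No member was called against IgG_RIP by edgeR, where 2.86% of all genes were, and 3 had an unadjusted p under 0.05 (Snora17, Snora31 and Snora81). The median log2 fold change of the 40 tested members was −0.23, against 0.04 over all genes. Both HU_Flag_RIP libraries lay above both IgG_RIP libraries for 5 of 40 members (23.9% of all genes) and below for 10 of 40 (23.5% of all genes). Snora81, which lies inside the translation factor gene Eif4a2 (chr16:23110770-23110933), came closest to a call. It had 25.9 and 10.7 CPM in Flag_RIP, 12.5 and 12.5 CPM in HU_Flag_RIP and 44.4 and 25.2 CPM in IgG_RIP. The HU_Flag_RIP libraries were near equal and both below the IgG_RIP libraries, with a log2 fold change of −1.48 (95% interval −2.34 to −0.61, edgeR adjusted p = 0.058). DESeq2 called it lower, as its only member. For Flag_RIP against IgG_RIP the log2 fold change of Snora81 was −0.92 (SE 0.40, adjusted p = 0.27). The counts of Eif4a2 itself had a log2 fold change of −0.004 for HU_Flag_RIP against IgG_RIP. These comparisons share the IgG_RIP libraries.

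HU_Flag_RIP and Flag_RIP did not separate the members either. No member was called by edgeR or DESeq2, while 0.611% of all genes were by edgeR. Snord22 was the 1 member with an unadjusted p under 0.05. The median log2 fold change was −0.18 over the 40 members and −0.003 over all genes. Both HU_Flag_RIP libraries were above both Flag_RIP libraries for 3 members (15.5% of all genes) and below for 7 (15.1% of all genes). Snord83b, inside Rpl3, had 2.13 and 0.164 CPM in HU_Flag_RIP against 5.64 and 2.62 CPM in Flag_RIP, a log2 fold change of −1.80 (SE 0.87). Snora2b, inside Kansl2, had 8 and 9 counts in HU_Flag_RIP against 2 and 1 in Flag_RIP, and 4 and 9 counts in IgG_RIP. For HU_Flag_RIP over Flag_RIP that is a ratio scaled by TMM of 7.61 with a counting interval of 2.20 to 40.5. This interval pools the libraries of each group and leaves out the spread between them. By edgeR the log2 fold change was 2.84 with a confidence interval of −0.09 to 5.76, which includes 0, and Snora2b was not called.

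With total counts alone as the scale, members appeared depleted, as did genes at large. Flag_RIP against IgG_RIP then gave 6 members lower (Scarna13, Snora74a, Snora78, Snora81, Snord15a and Snord17) while 21.1% of all genes were called lower, and the members' median of −0.89 stood beside −0.87 over all genes. HU_Flag_RIP against IgG_RIP gave 6 lower (Scarna9, Scarna13, Snora23, Snora43, Snora81 and Snord17) beside 25.0% of all genes, with medians of −1.14 and −0.88.

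**Figure D4:**
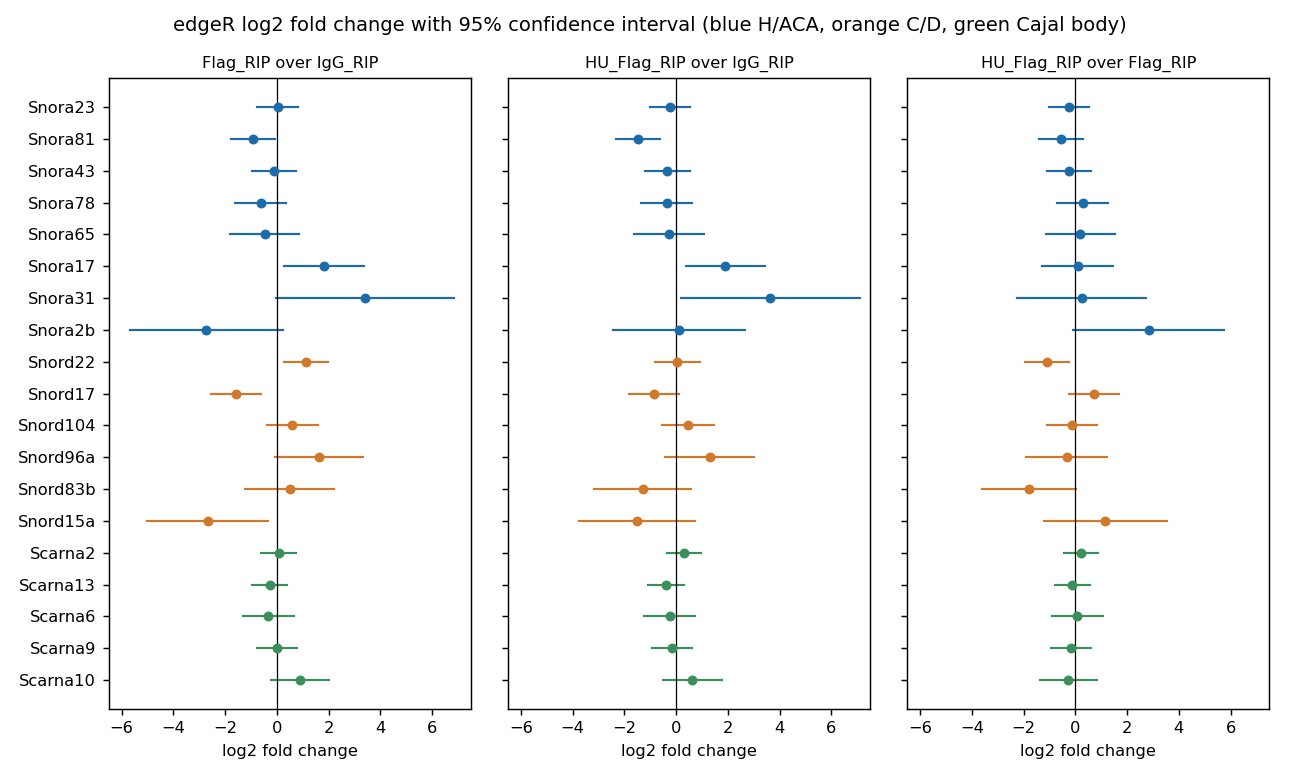
Log2 fold changes by edgeR (points) with 95% confidence intervals (bars) of the 19 members named by a fixed rule that had counts, 1 panel for each of the 3 RIP comparisons. No member is called. Before adjustment, intervals over IgG_RIP lie below 0 for Snord17 (−2.56 to −0.61), Snord15a and Snora81 in Flag_RIP and for Snora81 (−2.34 to −0.61) in HU_Flag_RIP. They lie above 0 for Snord22 and Snora17 in Flag_RIP and for Snora17 and Snora31 in HU_Flag_RIP. The interval of Snord22 for HU_Flag_RIP over Flag_RIP lies below 0.

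Of the box C/D RNAs known for pre-ribosomal RNA cleavage, 5 were in the tables and only Snord22 had counts. Snord14a, Snord14c and Snord14d (U14) and Snord118 (U8) had 0 counts in all 6 RIP libraries. The files place these 4 at chromosomes 2, 10, 10 and 19, on loci of 22, 22, 23 and 44 nt, where RefSeq (GRCm38.p6) places them at chromosomes 7, 9, 9 and 11 with 87, 87, 87 and 137 nt. The deposited loci are thus not those of the RefSeq genes, those of Snord14c and Snord14d overlap, and zero counts there give no level for the RNAs.

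Most members sit inside another gene, going by the deposited loci, which for Snord14a and Snord118 are not those of RefSeq. Of the 119, 111 lay within the locus of another gene of the tables, 87 hosts in all, and 8 in none (Scarna2, Scarna17, Snord14c, Snord14d, Snord64, Snord89, Snord104 and Snord116l2). Reads of a mature small RNA and of an unspliced host intron cannot be told apart in a gene count, and strand is not given. For some members the host was nearly silent in the RIP counts: Scarna13 had 2008 counts and its host Snhg10 had 28, and Snora78 had 387 counts and Snhg9 had 1. Over 35 tested pairs of member and host, the log2 fold changes had the same sign in 15 for Flag_RIP against IgG_RIP, in 15 for HU_Flag_RIP against IgG_RIP and in 22 for HU_Flag_RIP against Flag_RIP. None of these 31 hosts was called in any of the 3.

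RNA-seq of total RNA registered very few of the small RNAs. Per library 1 to 4 of the 119 members were above 0 FPKM, always among Snora81, Snora78, Snora23, Snord17 and Scarna6, all at least 157 nt long. The deposited confidence bounds correspond to between 1 and 10 fragments per value, taking the interval as 2 square roots of the fragment number. Snora81 stood at 161 and 275 FPKM in Dppa5a_KD (1 and 2 fragments) against 339 and 651 FPKM in KD_control (4 and 7 fragments), and at 1438 and 259 FPKM in mESC against 0 and 2146 FPKM in MEF. Snora23 was listed at 0 in both Dppa5a_KD libraries against 29.5 and 16.3 FPKM in KD_control, and stood at 27.2 and 46.0 FPKM in mESC against 0 in both MEF libraries. Snord17 was listed at 0 in both Dppa5a_KD libraries against 2.61 and 2.87 FPKM in KD_control. It stood at 22.8 and 0 FPKM in mESC against 28.6 and 13.1 FPKM in MEF. Snora78 stood at 0 and 858 FPKM in Dppa5a_KD (2 fragments) against 0 in both KD_control libraries, and was listed at 0 in mESC and MEF. Scarna6 stood at 11.0 and 0 FPKM in mESC (4 fragments) and at 0 in the other 6 libraries.

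In limma on log2(FPKM + 1), 2 of the 4 tested members were called lower in Dppa5a_KD, Snora23 (adjusted p = 0.0060) and Snord17 (adjusted p = 0.0060), beside 23.8% of all genes called lower (37.4% in either direction). In mESC against MEF 1 of 4 was called higher, Snora23 (adjusted p = 1.5e-04), beside 30.6% of all genes called higher (56.7% in either direction). Each of these calls sets a group listed at 0 against values of 1 or 2 fragments per library whose lower confidence bound is 0, so no fold is given. In each, the gene passed the filter on low values only through the group that was not at 0. Its call could thus only go the way found, and these counts are not comparable with the shares over all genes. Snora78, at 0 in both KD_control libraries, could likewise only be called higher. The fit sees 2 near-equal values and 2 zeros, and counting error is not part of it. Only Snora81 had a lower bound above 0, in KD_control replicate 2, mESC replicate 1 and MEF replicate 2. Snora78, the fourth tested member, was not called, though it was called higher in 4 of 12 alternatives. The log2 fold change of Snora81 of −1.16 for Dppa5a_KD against KD_control had an adjusted p of 0.089.

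Among the host genes, 11 of the 16 tested hosts that are themselves non-coding fell in Dppa5a_KD. Hosts were split by RefSeq gene type after their values had been seen, so the split carries no test of its own. Of the 19 hosts annotated as lncRNA, which hold 27 members, 16 were tested. In Dppa5a_KD against KD_control limma called those 11 lower and 0 higher, where 23.8% of all genes were called lower and 13.6% higher. Their median log2 fold change was −1.52, against −0.11 over all genes. Of 250 tested lncRNA genes that host no member, 72 were lower (28.8%) and 24 higher, with a median of −0.36. The 11 hosts hold 19 of the small RNAs. Among these hosts, Snhg10 and AI450353 averaged under 1 FPKM in Dppa5a_KD. They passed the filter on low values only through KD_control, which favours a lower call.

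The named hosts below were chosen after their values were seen. Snhg12, which holds Snord99, Snora16a, Snora44 and Snora61, had 3.71 and 15.2 FPKM in Dppa5a_KD against 75.3 and 82.8 FPKM in KD_control, a log2 fold change of −3.20 (SE 0.59, limma adjusted p = 0.017). The gene listed as 1500012F01Rik, named Zfas1 in RefSeq and host of Snord12, had 3.41 and 20.5 FPKM in Dppa5a_KD against 162 and 158 FPKM in KD_control (−4.05, SE 0.75, adjusted p = 0.017). Both groups were far apart in each case. The gene 2410006H16Rik, host of Snord49a, Snord49b and Snord65, had 26.6 and 92.5 FPKM in Dppa5a_KD against 436 and 451 FPKM in KD_control (−3.13, SE 0.58, adjusted p = 0.018).

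Among the lncRNA hosts of members discussed above, Snhg7, Snhg1 and Snhg10 fell. Snhg7, host of Snora17 and Snora43, had 1.96 and 4.91 FPKM in Dppa5a_KD against 21.1 and 21.3 FPKM in KD_control (−2.41, SE 0.34, adjusted p = 0.0098). Snhg1, host of Snord22, had 46.8 and 124 FPKM in Dppa5a_KD against 268 and 277 FPKM in KD_control (−1.82, SE 0.46, adjusted p = 0.037). Snhg10, host of Scarna13, had 0.124 and 1.19 FPKM in Dppa5a_KD against 2.59 and 2.66 FPKM in KD_control (−1.21, SE 0.33, adjusted p = 0.044). Snhg10 passed the filter on low values only through KD_control. The others called lower were 1810032O08Rik (Snhg16 in RefSeq), 1110038B12Rik, Snhg6, Snhg18 and AI450353, with log2 fold changes of −2.62, −2.30, −1.98, −1.20 and −0.47. Gas5, host of Snord47, had 3.55 and 7.09 FPKM in Dppa5a_KD against 7.26 and 7.81 FPKM in KD_control and was not called (−0.49, adjusted p = 0.23); nor were Snhg8, Dancr, Snhg4 and 2700038G22Rik.

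Dppa5a_KD replicate 1 was the lower of the pair for 9 of the 11 called hosts, as it was for all 21 ribosomal protein hosts. For 10 of the 11 both mESC libraries also lay below both KD_control libraries, although both groups are wild type stem cells; the exception was AI450353, for which they lay above. Snhg12, for instance, stood at 20.6 and 21.9 FPKM in mESC. For 6 of the 11 the Dppa5a_KD and mESC values overlapped, and for 4 both Dppa5a_KD libraries lay below both mESC libraries. These levels are set side by side across separately made files and were not tested. The summed fibroblast markers given above, which feeder cells also express, were likewise higher in KD_control than in Dppa5a_KD and mESC, and their part in the host values was not tested; 3 of the 8 markers were at or above 1 FPKM in each KD_control library (Thy1, Fbln2 and Pdgfrb), and 2 were at 0. In mESC against MEF, 6 of 17 lncRNA hosts were higher and 1 lower, beside 30.6% and 26.1% of all genes, with a median of 0.40 against 0.15 over all genes. None was higher without either MEF library, and 3 were without either mESC library. The 1 lower was Snhg18, host of Snord123, at 0.0564 and 0.256 FPKM in mESC against 7.85 and 9.13 FPKM in MEF (−3.04, adjusted p = 2.2e-04). Snhg18 averaged under 1 FPKM in mESC and passed the filter on low values only through MEF, which favours a lower call. Of the 6 higher, AI450353 and Snhg10 averaged under 1 FPKM in MEF and passed only through mESC, which favours a higher call.

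**Figure D5:**
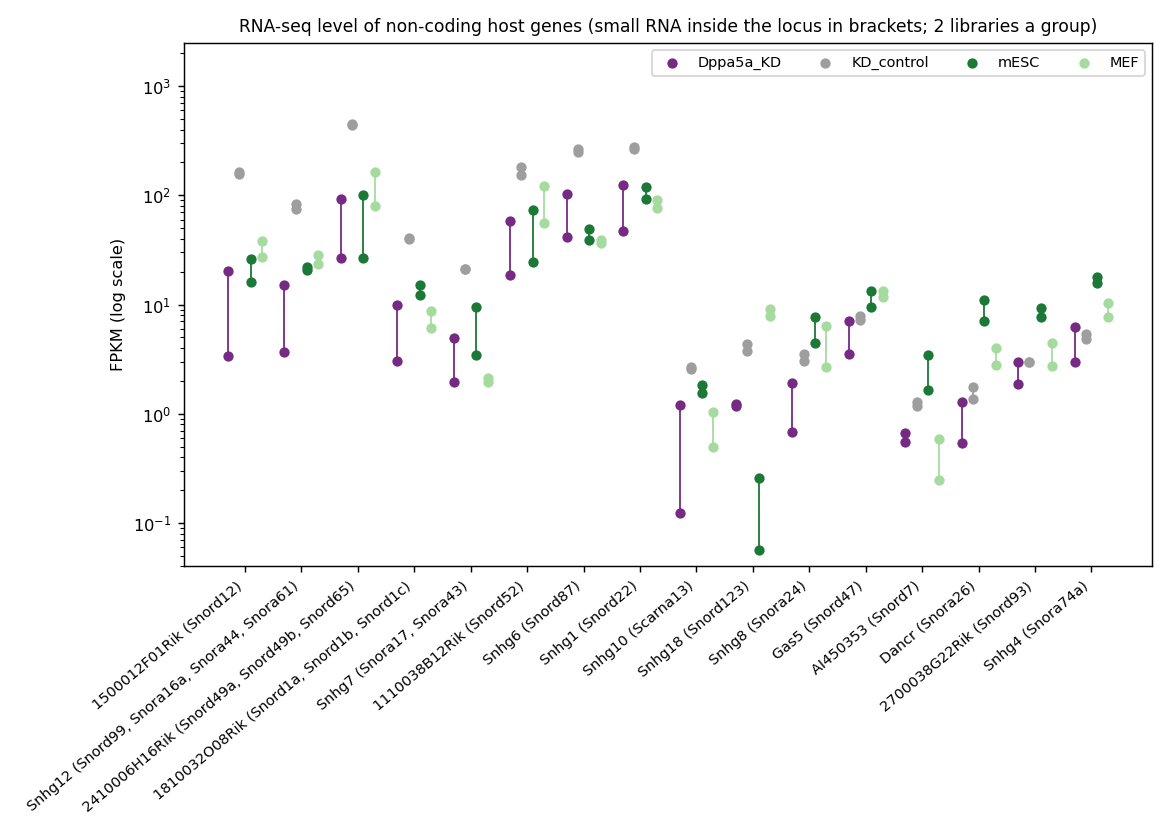
FPKM on a log axis of the 16 lncRNA hosts tested in Dppa5a_KD against KD_control, with the small RNAs inside each in brackets, 1 point per library and a line joining the pair of a group. From Zfas1 (1500012F01Rik) to Snhg1 the KD_control pair lies above the Dppa5a_KD, mESC and MEF pairs.

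The starts of the called lncRNA hosts are shown because pyrimidine-led starts are the shared feature known of many hosts of this kind. Each line gives 10 bases before and 20 bases from the RefSeq start (GRCm38.p6, transcript strand), with the longest unbroken run of C and T in capitals; base 11 is the start. Of the 11, 9 had an entry.
Snhg12: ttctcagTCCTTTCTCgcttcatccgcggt
Snhg1: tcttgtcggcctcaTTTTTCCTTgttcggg
Snhg7: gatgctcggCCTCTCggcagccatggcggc
Snhg10: ggTTCCTTTTgcggtgattgctacggtaac
Snhg18: cccaggCCCCTCCTCTagccccgcctcttc
Snhg16 (1810032O08Rik): gcgcaagcgcgatctcgTCCTTTCCgaggt
Zfas1 (1500012F01Rik): tgcgCCCCgggcggccgcaggtctcggctg
2410006H16Rik: cgccgTCTTTCTCTgcggccatcatgggat
1110038B12Rik: gcggcacacgggTCTCTTTgtgcacccgcc
In 8 of the 9 the run was at least 6 bases long, as it was in 28.7% of all 32851 such windows, whose median was 4. These are runs anywhere in the window, not only at the start. The run covered the start in Snhg12, Snhg7, Snhg18 and 2410006H16Rik. It ended before the start in Snhg10 and began after it in Snhg1, Snhg16 and 1110038B12Rik. The window of Snhg12 is chr4:132308668-132308697 and that of Snhg1 is chr19:8723477-8723506. Zfas1 had a run of 4. The search covered the transcript strand only, and a run is a description of the letters, not of use of the start. Hosts that were not called were not looked at apart, so a run cannot be tied to the calls.

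None of the 21 hosts counted here as ribosomal protein genes, which hold 30 members, was called by limma. A log2 fold change below 0 was found for 20 of the 21. The median of the 21 was −0.43 against −0.11 over all genes. The absence of calls rests on both knockdown libraries, since without Dppa5a_KD replicate 2 limma called 20 lower (median −0.84) and without Dppa5a_KD replicate 1 it called 6 lower and 5 higher (median −0.02). Of 43 other tested protein-coding hosts 10 were higher and 8 lower, where 13.6% of all genes were called higher and 23.8% lower. Their median was 0.24, and 0.17 to 0.37 over the alternatives, which include leaving out a library. The number called changed widely with the library left out. Rpsa, host of Snora62, is counted among these 43 although it too encodes a ribosomal protein (−0.31, limma adjusted p = 0.44). Nucleolin (Ncl), which holds Snord82 and Snora75 and is a major nucleolar protein, had 187 and 137 FPKM in Dppa5a_KD against 65.4 and 68.1 FPKM in KD_control (1.25, SE 0.18, adjusted p = 0.011). Tsr1, a factor of 40S maturation and host of Snord91a, had 38.6 and 32.2 FPKM in Dppa5a_KD against 16.4 and 16.1 FPKM in KD_control (1.07, SE 0.12, adjusted p = 0.0074). Eif4a2, host of Snora81 and Snord2, had 129 and 186 FPKM in Dppa5a_KD against 523 and 523 FPKM in KD_control (−1.75, SE 0.22, adjusted p = 0.0084). Of the other protein-coding hosts of members discussed above, Ncapd2 (Scarna10) fell (−0.65, adjusted p = 0.017) and Snx5 (Snord17) rose (0.53, adjusted p = 0.021). Ipo7 (Snora23), Atg16l1 (Scarna6) and Cep295 (Scarna9) were not called, with log2 fold changes of 0.62, 0.25 and 0.28.

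Genes for the proteins that work with these RNAs rose in part in Dppa5a_KD. Over all genes 13.6% were called higher and 23.8% lower there, against which the counts of each list stand. Of the 5 genes counted here as box C/D core proteins 2 rose by limma, Nop58 and Rrp9, and 0 fell. Rrp9 is counted although it belongs to the U3 particle, whose complex is described below. Nop58, the scaffold of the box C/D particle and itself host of Snord11 and Snord70, had 88.8 and 84.8 FPKM in Dppa5a_KD against 55.6 and 52.7 FPKM in KD_control (0.67, adjusted p = 0.013). Fibrillarin (Fbl) had 192 and 275 FPKM in Dppa5a_KD against 198 and 195 FPKM in KD_control and did not pass (0.22, adjusted p = 0.44). None of the 4 box H/ACA core proteins was called; dyskerin (Dkc1) had 92.4 and 79.7 FPKM in Dppa5a_KD against 110 and 115 FPKM in KD_control (−0.39, adjusted p = 0.072). Of 10 assembly factors 4 rose, among them Ruvbl1, an ATPase of particle assembly, with 241 and 259 FPKM in Dppa5a_KD against 126 and 130 FPKM in KD_control (0.96, adjusted p = 0.0092). Without either KD_control library none of the box C/D core or assembly genes was called, with medians of 0.44 and 0.44 and of 0.21 and 0.23.

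Proteins of the small-subunit processome, the U3-guided complex that cleaves pre-ribosomal RNA, rose in 9 of 12 cases in Dppa5a_KD with 0 lower, beside 13.6% of all genes higher and 23.8% lower, and had a median of 0.60 against −0.11 over all genes. Imp4, a subunit bound to U3, had 42.0 and 45.7 FPKM in Dppa5a_KD against 18.8 and 17.3 FPKM in KD_control (1.24, limma adjusted p = 0.0060), and Heatr1 had 60.8 and 37.7 FPKM against 20.7 and 21.1 FPKM in KD_control (1.16, adjusted p = 0.022). Without either KD_control library this count was 3 of 12, with medians of 0.60 and 0.61. Beside the same 13.6% of all genes higher, of 12 genes for trimming of small RNA ends 4 rose, among them the deadenylase gene Toe1 (1.21, adjusted p = 0.0061), and of 8 Cajal body and capping genes 1 rose (Phax, 0.52, adjusted p = 0.017) and 1 fell (Gemin2, −0.69, adjusted p = 0.049). Without KD_control replicate 1 or 2 the trimming genes higher were 2 and 1, and no Cajal body or capping gene was called. None of these protein genes was called in any RIP comparison.

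In mESC against MEF the same lists were mostly higher, beside 30.6% of all genes called higher. Called higher were 4 of 5 box C/D core, 2 of 4 box H/ACA core, 8 of 10 assembly, 6 of 8 Cajal body and capping, 8 of 12 small-subunit processome and 4 of 12 trimming genes, and none was called lower. Without MEF replicate 1 these counts were 0, 1, 2, 1, 0 and 0, and without MEF replicate 2 they were 0, 1, 2, 1, 1 and 0, while each list's median stayed above 0. Dkc1 had 79.5 and 81.1 FPKM in mESC against 21.1 and 23.8 FPKM in MEF (1.80, limma adjusted p = 0.0013), and Coil, the coilin that marks Cajal bodies, had 27.3 and 23.4 FPKM in mESC against 3.48 and 3.62 FPKM in MEF (2.53, adjusted p = 0.0004).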

How the data were processed

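Counts per gene in the 6 RIP libraries and FPKM in the 8 RNA-seq libraries were used as deposited. The authors' count tables hold raw whole-number counts per gene symbol, as their values show. The authors deposited FPKM per locus with lower and upper confidence bounds, per the file headers. The submitters' processing notes name mm10 as the build and HTSeq 0.6.1, TopHat2 2.0.8 and CASAVA 2.19 beside Cuffdiff 2.1.1 and Cufflinks 2.1.1, with no role stated; libraries were made with an NEBNext Ultra RNA kit, per the labels' protocols. The sources used here do not state whether small RNAs were kept or strand was recorded.

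Of the counted genes, 27 whose symbols had turned into dates were left out (0.0206 to 0.0489% of counts), as was 1 gene whose FPKM estimate had failed. Counts were tested with edgeR 4.0.16 (quasi-likelihood, TMM factors, filterByExpr, all 6 RIP libraries in 1 fit) in R 4.3.3. FPKM were summed over the loci of a symbol and tested on log2(FPKM + 1) with limma 3.58.1 (trend), keeping genes that averaged 1 FPKM or more in one of the groups and the 4 libraries of each comparison; such fold changes understate those of low genes. P-values were adjusted by Benjamini-Hochberg over all genes tested, and called under 0.05. DESeq2 1.42.0, other scalings, filters, a replicate block and leaving out libraries were alternatives. Each fit was tested on simulated data. Python 3.11.15 with pandas 2.3.3, scipy 1.17.1 and matplotlib 3.10.9 did the rest. Fragments behind an FPKM value were worked out from its upper bound. A host is a gene whose deposited locus contains that of the small RNA; all 87 matched a RefSeq gene type, 6 of them by an older symbol. Sequences come from RefSeq (GRCm38.p6).

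The members and gene lists were chosen with earlier results of these data known. Members named are, per class, the 5 with the highest mean CPM and 3 with the highest mean FPKM, and, per comparison, those called (up to 8 each way) or with the smallest p (up to 4), plus the pre-ribosomal RNA cleavage list. Hosts were named after their values were seen.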

Additional observations from a re-analysis of the deposited data

How the results depend on the processing

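For Flag_RIP against IgG_RIP the number of members called lower, 0 by edgeR, was 6 by library size alone, 1 without the filter on low counts, 1 with the replicate block, and 0 to 3 with a library left out; the number called higher was 0 to 1 with a library left out. The median of 0.02 was −0.89, 0.30 and −0.056 under the first 3 of these and −0.28 to 0.37 with a library left out. For HU_Flag_RIP against IgG_RIP the number lower was 6 by library size alone and 1 without the filter, with the replicate block, with DESeq2 and with only the 4 libraries of the comparison. Its median of −0.23 was −1.14 by library size alone, 0.00 without the filter and −0.44 to −0.064 with a library left out. For HU_Flag_RIP against Flag_RIP the median of −0.18 was −0.068 with a mean of at least 20 counts and −0.31 to −0.066 with a library left out. For Dppa5a_KD against KD_control the number of members lower, 2, was 1 with a mean of at least 5 FPKM and 1 with all 8 libraries in 1 fit, where Snord17 was lost (adjusted p = 0.28), 3 with the replicate block and 2 to 3 with a library left out, and the number higher was 1 with the replicate block and 0 to 1 with a library left out. For mESC against MEF the median of 2.76 was 4.39 with a pseudocount of 0.1 and 0.13 to 4.20 with a library left out, the number higher was 3 with the replicate block and 1 to 2 with a library left out, and the number lower was 1 with the block and 0 to 1 with a library left out. Apart from what the alternatives change by construction, the cause was not tested. With a library left out, the lone library of its group is assumed to vary like the other groups. The share of all genes called in such fits is not given here, so the counts called there have no background beside them. Same-numbered libraries did not vary together throughout (correlation of deviations 0.357 for HU_Flag_RIP and Flag_RIP, −0.01 and −0.03 for these with IgG_RIP, 0.014 for Dppa5a_KD and KD_control and −0.540 for mESC and MEF), so the numbers were not taken as pairs.

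The count of lncRNA hosts lower in Dppa5a_KD, 11 of 16, was 7 of 18 without the filter on low values, 7 of 9 with a mean of at least 5 FPKM, 10 to 14 of 16 over the other settings, and 11 to 16 with a library left out, when 1 host was also higher without Dppa5a_KD replicate 1. Their median stayed between −2.41 and −1.13. Other FPKM scalings moved the median of all genes from −0.11 to between −0.01 and 0.02. Depth limits most members: only 40 of 119 were tested, and RNA-seq values rest on 1 to 10 fragments.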

Other observations

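Other short non-coding RNAs with enough counts did not all behave like the small nucleolar RNAs. Rmrp, the RNA of RNase MRP, which cleaves pre-ribosomal RNA, had 106120 and 94769 CPM in Flag_RIP, 164683 and 189077 CPM in HU_Flag_RIP and 195117 and 223112 CPM in IgG_RIP. It was lower in Flag_RIP than in IgG_RIP (log2 fold change −1.06, SE 0.09, edgeR adjusted p = 1.8e-06) and higher in HU_Flag_RIP than in Flag_RIP (0.82, adjusted p = 1.3e-04), while HU_Flag_RIP against IgG_RIP gave −0.24 (adjusted p = 0.17). These comparisons share libraries. Rpph1, the RNA of RNase P, had 2065 and 1821 CPM in Flag_RIP, 2426 and 2859 CPM in HU_Flag_RIP and 2854 and 1943 CPM in IgG_RIP, and was not called.

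Terc, the telomerase RNA, which carries a box H/ACA domain, had 42.9 and 43.6 CPM in Flag_RIP, 48.9 and 88.8 CPM in HU_Flag_RIP and 103 and 57.0 CPM in IgG_RIP (Flag_RIP against IgG_RIP −0.89, edgeR adjusted p = 0.19). In RNA-seq Terc had 3.05 and 6.06 FPKM in Dppa5a_KD against 0.680 and 1.02 FPKM in KD_control (1.54, limma adjusted p = 0.018), and 2.84 and 3.09 FPKM in mESC against 0.290 and 0 FPKM in MEF (1.80, adjusted p = 0.0011). Terc averaged under 1 FPKM in KD_control and in MEF. It thus passed the filter on low values only through Dppa5a_KD and mESC, which favours a higher call. Of the 5 other short RNAs tested in Flag_RIP against IgG_RIP 1 was lower and none higher. Dppa5a itself had 170 and 160 CPM in Flag_RIP, 114 and 114 CPM in HU_Flag_RIP and 232 and 252 CPM in IgG_RIP, and was lower in HU_Flag_RIP than in IgG_RIP (−1.08, edgeR adjusted p = 0.017). In the RIP counts the 16 tested lncRNA hosts had a median log2 fold change of 0.90 for Flag_RIP and 0.87 for HU_Flag_RIP against IgG_RIP, where all genes had 0.02 and 0.04. By library size alone the medians were −0.0004 and −0.06, against −0.87 and −0.88 over all genes, and the HU_Flag_RIP median was 0.36 without HU_Flag_RIP replicate 2 and 1.34 without IgG_RIP replicate 2. With TMM none of these hosts was called by edgeR, and by library size alone 1 was lower in Flag_RIP and 2 in HU_Flag_RIP.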
